A study of Aspergillus oryzae with 8 samples.

Results

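The 4 genes described here encode proteins that cut other proteins or peptides in Aspergillus oryzae RIB40, the koji mold of soy sauce and sake making. They were picked by locus tag: AO090003001036 and AO090120000474, both described by the selection as secreted proteases of the koji mold, dppIV (AO090023000602), a dipeptidyl peptidase gene, and sxa2 (AO090120000232), a carboxypeptidase gene. The choice was made with earlier results of these data known. They are 4 of 11880 genes listed in the files, and all 4 passed the filter on low counts that left 9438 genes for testing. The reference used for names gives symbols to dppIV and sxa2 but not to the other genes, which are therefore printed by locus tag.

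The 8 libraries of polyadenylated RNA covered 4 conditions of this strain, with 2 libraries per condition. The solid control was mycelium on cellophane over agar, and the liquid control was mycelium in 30 mL of medium shaken at 200 rpm, each grown for 40 h at 30 °C. The treated conditions, solid DTT and liquid DTT, received dithiothreitol at 20 mmol/L. All 4 conditions shared a medium of pH 5.5 with 2.0% glucose as carbon source and nitrate as nitrogen source, with no protein listed in it. On agar, treatment included moving the cellophane with its mycelium onto soaked filter paper, a move that the labels do not describe for the solid control, so DTT and the move cannot be told apart there. The labels give no exposure time for DTT. For the treated libraries of both cultures they also state no growth time, growth temperature or shaking rate.

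Secreted proteases and peptidases enter the endoplasmic reticulum (ER) as they are made, fold there, and leave the cell by the secretory pathway. Outside the cell, endoproteases cut proteins into peptides, dipeptidyl peptidase IV takes dipeptides off the amino end, preferring those that end in proline, and carboxypeptidases take single residues off the other end. The koji mold is known for the amount of such enzymes it secretes, which release peptides and amino acids in food fermentation. DTT reduces the disulfide bonds of proteins folding in the ER and is widely used to cause ER stress. The sxa2 gene is named after a fission yeast gene whose product is a secreted serine carboxypeptidase that degrades a mating pheromone.

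Each library held 5880753 to 8912897 reads on genes, of which 8.21% to 37.6% fell on rRNA genes. Levels are given as CPM, the count scaled to library size with TMM factors. Scaled to library size without TMM factors, 3 reads correspond to 0.337 to 0.510. With the factors, 3 reads in liquid DTT replicate 1 were 0.678 CPM, and 10 reads in solid DTT replicate 2 were 0.899 CPM. Replicate 1 of every condition had an insert size of 500 bp and replicate 2 one of 200 bp. Nothing in the labels says that both libraries of a condition came from separate cultures, and p-values here reflect no more than the spread between those libraries, which may be technical. As a check of the treatment, bipA, the gene of the main Hsp70 chaperone of the ER, was at 728 and 801 CPM in the solid controls and at 8445 and 9309 CPM in the solid DTT libraries. It was at 312 and 483 CPM in the liquid controls and at 5632 and 8550 CPM in the liquid DTT libraries. Spore and conidiophore genes, markers of the other cell types a mycelium can form, had reads in every library for all 8 members tested, and their summed level was 188 to 244 CPM in the solid controls, 193 to 201 in solid DTT, 300 to 426 in the liquid controls and 412 to 451 in liquid DTT. The sum hides members that went in different directions. In the solid controls medA was at 41.3 and 59.9 CPM, and in the liquid controls at 260 and 136 CPM. By contrast, brlA was at 8.08 and 9.80 CPM in the solid controls and at 2.86 and 1.10 CPM in the liquid controls. The part of the spore and conidiophore genes in the results below was not tested.

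In untreated mycelium the 4 genes spanned low to middling transcript levels. AO090003001036 was at 41.6 and 28.6 CPM in the solid controls, from 242 and 271 reads, and at 168 and 28.5 CPM in the liquid controls, from 941 and 260 reads. One liquid control library, replicate 1, thus stood far above the other 3 untreated libraries. The 2 liquid controls differed 5.89-fold for this gene, and only 2.83% of the tested genes differed as much between the same libraries. AO090120000474, the other secreted protease gene, was at 6.02 and 1.79 CPM in the solid controls, from 35 and 17 reads, and at 26.4 and 14.1 CPM in the liquid controls, from 148 and 129 reads. Both liquid controls lay above both solid controls for AO090120000474, although the solid controls themselves differed 3.36-fold, and 7.61% of tested genes differed as much.

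The dipeptidyl peptidase gene dppIV was at 59.8 and 106 CPM in the solid controls, from 348 and 1005 reads, and at 21.8 and 35.0 CPM in the liquid controls, from 122 and 319 reads. Every untreated library of solid culture was above every one of liquid culture for dppIV. The carboxypeptidase gene sxa2 was at 8.25 and 11.4 CPM in the solid controls and at 8.21 and 12.4 CPM in the liquid controls, from 46 to 113 reads per library. Its ranges in the 2 cultures overlapped almost fully.

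Under DTT the genes fell into 2 patterns, low levels of the first 3 and a raised level of sxa2. AO090003001036 was at 6.37 and 9.17 CPM in solid DTT and at 7.0 and 9.29 CPM in liquid DTT, from 31 to 102 reads per library. All 4 treated libraries were close together and below all 4 untreated ones. AO090120000474 was at 1.96 and 0.899 CPM in solid DTT, from 12 and 10 reads, and at 2.26 and 2.43 CPM in liquid DTT, from 10 and 23 reads. One solid DTT library of AO090120000474, replicate 1, was above one solid control, replicate 2, whereas both liquid DTT libraries were well below both liquid controls.

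Treated dppIV libraries were at 4.08 and 10.2 CPM in solid culture, from 25 and 113 reads, and at 0.903 and 2.43 CPM in liquid culture, from 4 and 23 reads. All 4 treated libraries lay below all 4 untreated ones. The sxa2 level was 19.6 and 20.6 CPM in solid DTT, from 120 and 229 reads, and 24.6 and 42.0 CPM in liquid DTT, from 109 and 398 reads. All 4 treated sxa2 libraries lay above all 4 untreated ones. How many of all tested genes kept treated and untreated libraries of both cultures apart, as AO090003001036, dppIV and sxa2 did, was not counted. Within 1 culture, 61.5% of all tested genes did so in solid and 59.7% in liquid culture, in either direction. In bulk RNA such as this, fewer cells that transcribe a gene and less RNA of it per cell cannot be told apart.

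**Figure D1:**
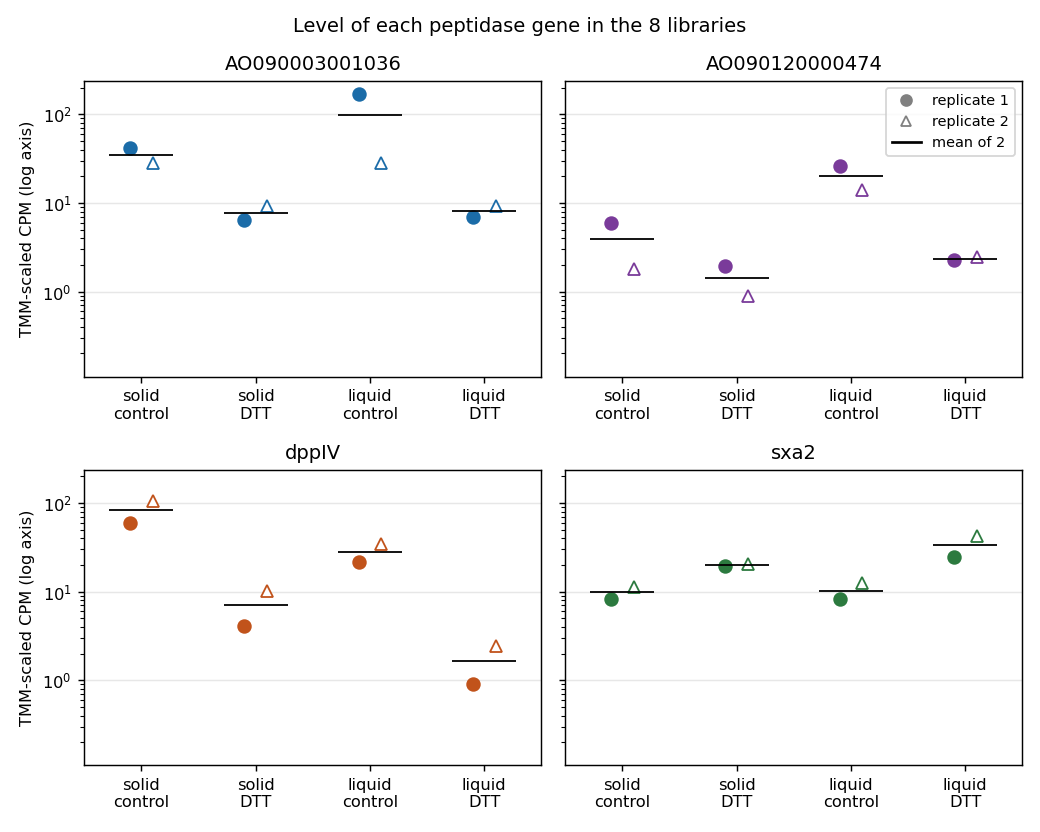
CPM scaled by TMM (log axis) of each of the 4 genes in the 8 libraries, by condition, with replicates 1 and 2 as separate points. AO090003001036 and dppIV lay lower in every DTT library than in any control library, sxa2 lay higher in every DTT library, and AO090120000474 overlapped in solid culture. The share of all tested genes separated in this way was not counted.

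The first comparison, DTT against control in solid culture, asked what the treatment did to these genes in mycelium on a surface. dppIV fell and was the only one of the 4 to pass the test, against 9.30% of all tested genes called in either direction. Its mean went from 82.9 ± 32.6 to 7.12 ± 4.30 CPM (SD, n = 2 libraries each), an 11.6-fold lower level. The log2 fold change was -3.52 ± 0.65 (SE), with an adjusted p of 0.0186 in the quasi-likelihood test of edgeR, adjusted after Benjamini and Hochberg over all tested genes. The log2 difference was -3.79 between the libraries of replicate 1 and -3.35 between those of replicate 2. With insert size as a block, where 20.1% of all genes were called, the adjusted p of dppIV was 0.00269 in edgeR's test. The call did not hold when any of the 4 solid libraries was left out, where few genes of any kind were called and bipA also lost its call (adjusted p up to 0.197 in edgeR's test). In edgeR's test the adjusted p was then 0.0613 without control replicate 1, 0.119 without control replicate 2, 0.0924 without DTT replicate 1 and 0.0608 without DTT replicate 2, with log2 fold changes from -4.24 to -3.03 over all libraries left out. In the same order 0.0636%, 0%, 1.53% and 0.773% of all genes were called.

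The other genes did not pass in solid culture. AO090003001036 had means of 35.1 ± 9.23 and 7.77 ± 1.98 CPM (SD, n = 2 each) and a log2 fold change of -2.16 ± 0.74, with an adjusted p of 0.0974 in edgeR's test. It passed, in the same direction, with DESeq2 (adjusted p = 0.0324, with 17.7% of all genes called) and with only the 4 solid libraries in edgeR's fit (0.0297, with 13.4% called). The same held in edgeR's test without liquid control replicate 1 (adjusted p = 0.0367, with 8.39% called) or replicate 2 (0.0336, with 7.89% called). AO090003001036 did not pass with insert size as a block (-2.06 ± 0.70, adjusted p = 0.0706 in edgeR's test, with 20.1% called). AO090120000474 had a log2 fold change of -1.46 ± 0.75 and an adjusted p of 0.238 in edgeR's test. sxa2 had means of 9.82 ± 2.21 and 20.1 ± 0.706 CPM (SD, n = 2 each), a 2.05-fold higher mean under DTT, with a log2 fold change of 1.03 ± 0.47 and an adjusted p of 0.191 in edgeR's test. Control and DTT libraries did not overlap for 3 of the 4 genes, but neither did they for 61.5% of all tested genes, a background high enough that non-overlap of 2 against 2 libraries says little.

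In liquid culture all 4 genes passed the test, 3 lower and 1 higher under DTT, against 20.0% of all tested genes called in either direction, 11.1% lower and 8.91% higher. Because the genes were chosen with earlier results of these data known, this count is a description and no evidence about peptidase genes in general. Non-overlap held for all 4, beside 59.7% of all tested genes. All 4 also passed with insert size as a block, where 31.6% of all genes did. The adjusted p in edgeR's test was then 0.0146 for AO090003001036, 0.00802 for AO090120000474, 0.00123 for dppIV and 0.0124 for sxa2. dppIV fell from 28.4 ± 9.33 to 1.67 ± 1.08 CPM (SD, n = 2 each). Its log2 fold change was -4.00 ± 0.69, with an adjusted p of 0.0081 in edgeR's test. This was the one call that held without each of the 8 libraries in turn, with log2 fold changes from -4.88 to -3.54 and adjusted p from 0.00907 to 0.0379 in edgeR's test. Of all genes, 6.45% to 16.9% were called without 1 liquid library and 14.7% to 15.5% without 1 solid library.

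Both secreted protease genes fell in liquid culture. AO090003001036 went from 98.2 ± 98.6 to 8.15 ± 1.62 CPM (SD, n = 2 each), with a log2 fold change of -3.58 ± 0.78 and an adjusted p of 0.0174 in edgeR's test. The size of that fall rested on 1 library. Between the libraries of replicate 1 the log2 difference was -4.53, between those of replicate 2 it was -1.59, and without liquid control replicate 1 the log2 fold change was -1.80 ± 0.57 with an adjusted p of 0.0932 in edgeR's test. The call was also lost without liquid DTT replicate 1 (adjusted p = 0.0841 in edgeR's test) and without liquid DTT replicate 2 (0.0601).

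AO090120000474 went from 20.3 ± 8.68 to 2.34 ± 0.121 CPM in liquid culture (SD, n = 2 each). Its log2 fold change was -3.10 ± 0.75, with an adjusted p of 0.0235 in edgeR's test. The log2 differences within replicates 1 and 2 were -3.40 and -2.42. In edgeR's test the adjusted p was 0.108 without liquid control replicate 1, where the log2 fold change was -2.58, and 0.0884 and 0.0811 without liquid DTT replicates 1 and 2.

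The carboxypeptidase gene sxa2 rose in liquid culture, the reverse of the other 3 genes. Its mean went from 10.3 ± 2.95 to 33.3 ± 12.3 CPM (SD, n = 2 each), a 3.24-fold higher level. The log2 fold change was 1.69 ± 0.48, with an adjusted p of 0.0384 in edgeR's test, and the differences within replicates 1 and 2 were 1.55 and 1.74. This call was near the threshold. It held with insert size as a block (adjusted p = 0.0124 in edgeR's test, with 31.6% of all genes called) but only without 1 of the 8 libraries, liquid DTT replicate 1 (0.0431). Without each of the other 7 libraries the adjusted p was 0.0503 to 0.186 in edgeR's test, with log2 fold changes from 1.33 to 2.04 over all 8, and with only the 4 liquid libraries in the fit it was 0.0810.

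**Figure D2:**
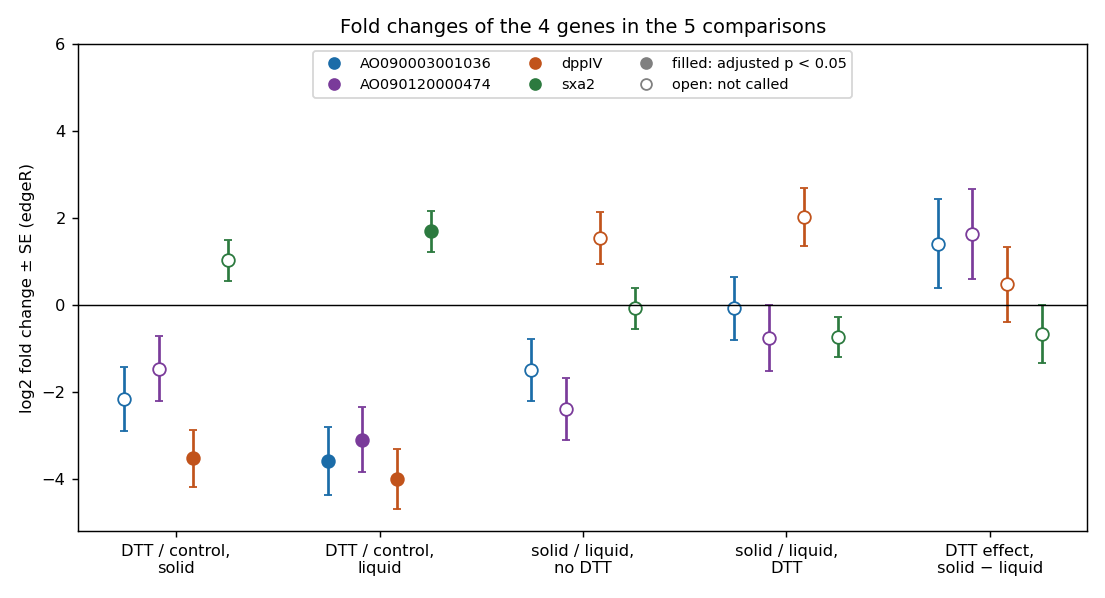
log2 fold changes with standard errors from edgeR's fit for each of the 4 genes in the comparisons of DTT with control and of solid with liquid culture. The 5 calls are dppIV in solid culture (-3.52) and, in liquid culture, dppIV (-4.00), AO090003001036 (-3.58), AO090120000474 (-3.10) and sxa2 (1.69).

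**Figure D3:**
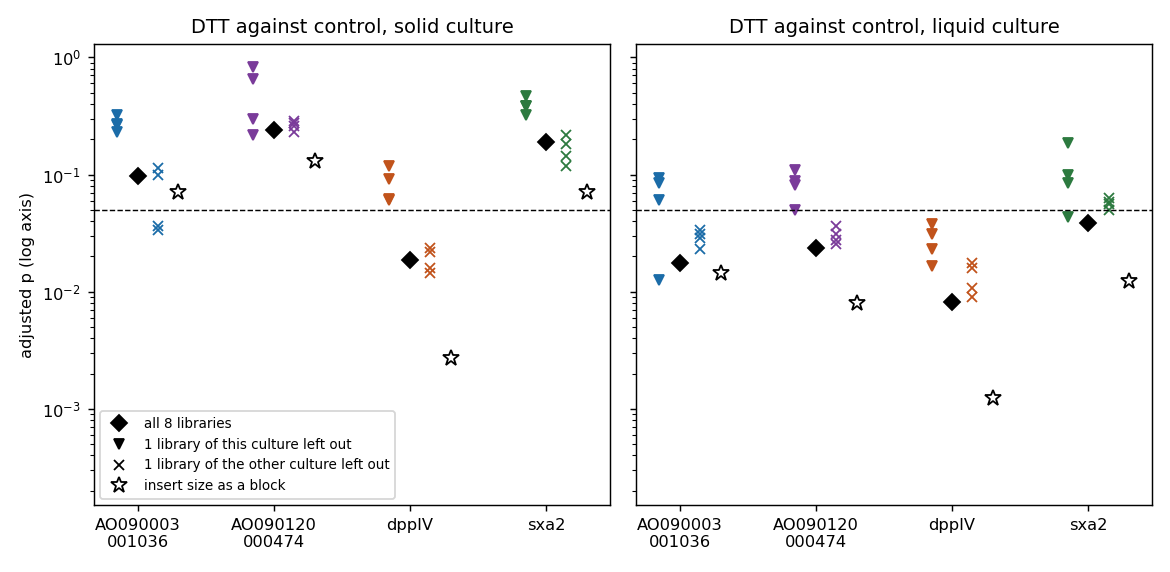
Adjusted p (log axis) of DTT against control in each culture, with all 8 libraries, with each library left out and with insert size as a block; the dashed line is the threshold of 0.05. Leaving out a library of the culture compared moved most calls over the line, whereas dppIV in liquid culture stayed below it, at most at 0.0379.

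Whether DTT acted differently in the 2 cultures was tested as the difference of both effects, solid minus liquid. None of the 4 genes passed, nor did any of the 9438 tested genes in edgeR's test (0% called), while 23 genes did with insert size as a block (0.244%) and 211 with DESeq2 (2.24%), none of them among the 4. The differences on the log2 scale were 1.41 ± 1.01 for AO090003001036, 1.64 ± 1.03 for AO090120000474, 0.48 ± 0.86 for dppIV and -0.66 ± 0.66 for sxa2, and none of them had an unadjusted p under 0.05 in edgeR's test. The lowest of these unadjusted values was 0.148, for AO090120000474. The pass in liquid culture and the miss in solid culture therefore do not show that AO090003001036, AO090120000474 or sxa2 responded differently in the 2 cultures. Leaving out liquid control replicate 1 turned the difference for AO090003001036 to -0.37, and leaving out solid DTT replicate 2 turned that for dppIV to -0.29.

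The comparison of solid with liquid culture without DTT addressed whether growth on a surface alone went with other levels of these genes. None of the 4 passed in edgeR's test, against 3.89% of all tested genes. dppIV was 1.54 ± 0.60 higher in solid culture on the log2 scale (adjusted p = 0.210 in edgeR's test), with differences of 1.45 and 1.59 within replicates 1 and 2. AO090120000474 was at -2.39 ± 0.72 (adjusted p = 0.109 in edgeR's test), with differences of -2.09 and -2.81. With insert size as a block both passed, dppIV at 1.53 ± 0.33 (adjusted p = 0.0310 in edgeR's test) and AO090120000474 at -2.49 ± 0.54 (0.0320), where 8.17% of all genes did. With DESeq2 AO090120000474 passed (adjusted p = 0.0281), beside 9.43% of all genes. The fit without the block adds the spread between insert sizes to the error, and the labels give the insert size of each library.

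The remaining genes showed no steady difference between the untreated cultures. AO090003001036 was at -1.48 ± 0.71 (adjusted p = 0.312 in edgeR's test). The difference was -2.01 in replicate 1 and 0.00 in replicate 2, and the fitted value was 0.30 without liquid control replicate 1. sxa2 was at -0.07 ± 0.47 (adjusted p = 0.964 in edgeR's test). Solid and liquid controls did not overlap for 2 of the 4 genes, dppIV and AO090120000474, beside 50.2% of all tested genes.

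Under DTT, again none of the 4 passed between the cultures in edgeR's test, against 2.95% of all tested genes. dppIV was 2.02 ± 0.66 higher in solid culture on the log2 scale (adjusted p = 0.115 in edgeR's test), with differences of 1.90 and 1.95 within replicates 1 and 2. It passed with insert size as a block (2.05 ± 0.39, adjusted p = 0.0229 in edgeR's test), where 10.5% of all genes did, and with DESeq2 (adjusted p = 0.0456), where 12.1% did. The values of AO090003001036 (-0.07 ± 0.73), AO090120000474 (-0.75 ± 0.76) and sxa2 (-0.73 ± 0.46) had adjusted p from 0.375 to 0.965 in edgeR's test. Solid and liquid DTT libraries did not overlap for 3 of the 4 genes, all but AO090003001036, beside 51.8% of all tested genes.

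Levels of different genes were compared per kilobase of coding length, taken from the denominators of the deposited coverage fractions. These lengths were 1212 bp for AO090003001036, 1215 bp for AO090120000474, 2316 bp for dppIV and 1599 bp for sxa2. In the solid controls AO090003001036 was at 34.3 and 23.6 CPM per kb and dppIV at 25.8 and 45.7, so their order differed between the libraries. Below them came sxa2, at 5.16 and 7.12 CPM per kb, and AO090120000474, at 4.95 and 1.47, 2 genes whose ranges did not overlap although they came close to each other in replicate 1.

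In the liquid controls AO090003001036 led with 139 and 23.5 CPM per kb. AO090120000474, at 21.7 and 11.6, and dppIV, at 9.40 and 15.1, overlapped, and sxa2 was lowest at 5.13 and 7.75. Under DTT the order was led by sxa2 in both cultures. In solid DTT it was at 12.3 and 12.9 CPM per kb, above AO090003001036 (5.25 and 7.57), dppIV (1.76 and 4.39) and AO090120000474 (1.61 and 0.740). In liquid DTT sxa2 was at 15.4 and 26.3 CPM per kb, above AO090003001036 (5.78 and 7.67), AO090120000474 (1.86 and 2.0) and dppIV (0.390 and 1.05).

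Neighbours in the order did not overlap in either DTT condition, although dppIV and AO090120000474 in solid DTT differed by little. Of the summed level of the 4 genes per kilobase, sxa2 made up 7.34% and 9.14% in the solid controls and 58.7% and 50.4% in solid DTT. In liquid culture its share was 2.94% and 13.4% without DTT and 65.7% and 71.0% with it. The share of dppIV was 36.8% and 58.7% in the solid controls and 1.67% and 2.83% in liquid DTT, its highest and lowest conditions.

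**Figure D4:**
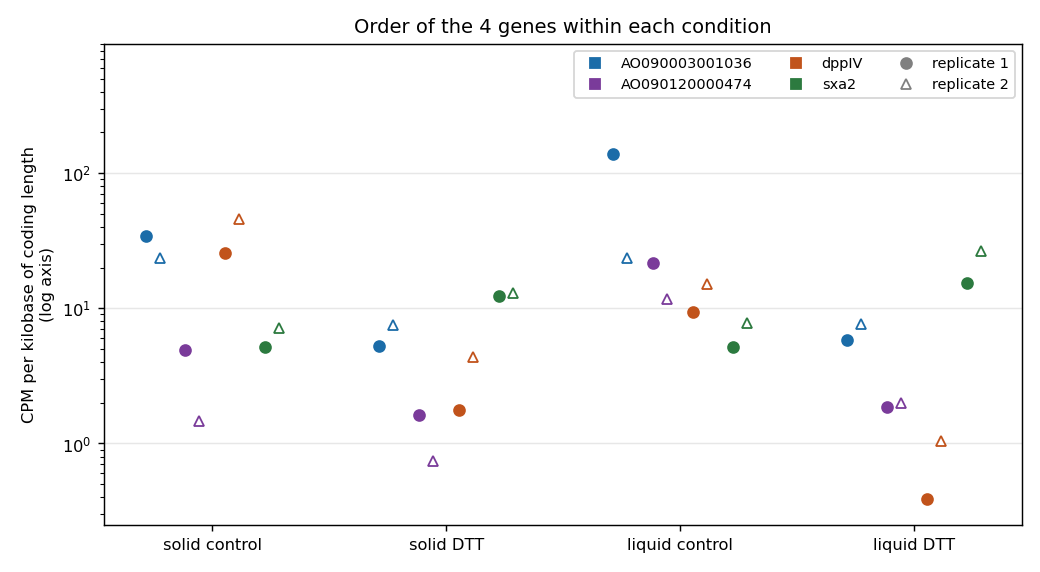
Level of each gene in CPM per kilobase of coding length (log axis) in the 8 libraries, by condition. AO090003001036 or dppIV was highest in every control library and sxa2 in every DTT library.

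Among all tested genes, the members ranged from the bottom to the upper part of the distribution of CPM per kb. dppIV was at percentiles 64.2 and 75.8 in the solid controls and 6.18 and 12.3 in liquid DTT. AO090003001036 stood at percentiles 60.9 and 91.4 in the liquid controls, and sxa2 at 53.8 and 64.6 in liquid DTT.

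The share of each gene covered by reads is a separate column deposited by the authors. Within each replicate number, coverage of the first 3 genes was lower under DTT than in the control of the same culture. Coverage of dppIV was 91.1% and 99.7% in the solid controls and 34.1% and 86.5% in solid DTT, and 64.0% and 95.1% in the liquid controls and 7.60% and 35.1% in liquid DTT. AO090003001036 was covered over 84.7% to 100% of its length in the controls and over 47.9% to 96.4% under DTT. For AO090120000474 coverage was 54.5% and 62.3% in the solid controls and 31.2% and 38.0% in solid DTT, and it reached 79.9% and 99.5% in the liquid controls but 24.0% and 54.3% in liquid DTT. sxa2 was covered over 61.2% to 93.5% in the controls and 75.4% to 99.7% under DTT. Replicate 2 had the higher coverage of all 4 genes in every condition, also where it had fewer reads, as for AO090120000474 in both controls and in solid DTT and for AO090003001036 in the liquid controls.

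The patterns of the 4 genes across the 8 libraries were set beside one another and beside all other tested genes by the root mean square (RMS) difference of centred log2 CPM, a measure that is 0 for identical patterns. The secreted protease genes AO090003001036 and AO090120000474 differed by an RMS of 0.877 on the log2 scale, which ranked AO090120000474 160 of 9437 genes in likeness to AO090003001036. dppIV was at 1.58 from AO090003001036, beside a median of 1.66 over all tested genes, and at 2.12 from AO090120000474, beside a median of 1.65. sxa2 was at 2.17 from AO090003001036, 2.01 from AO090120000474 and 2.79 from dppIV, and the median distance of all tested genes from it was 1.12. By this measure AO090120000474 was thus further from dppIV than from sxa2. Its Pearson correlation over the same libraries was 0.354 with dppIV and -0.619 with sxa2, so it varied in the opposite direction to sxa2. These libraries share their depths and insert sizes, and the values are descriptions over 8 points.

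The genes most like each member were found the same way, so their responses resemble the member's by choice. For AO090003001036 they were AO090023000254 (RMS 0.522), AO090103000230 (0.528) and AO090138000132 (0.530), and the nearest with a symbol were gmdA (0.646) and cnaB (0.740), the latter a regulatory subunit gene of calcineurin. For AO090120000474 they were AO090038000274 (0.323), AO090011000818 (0.346) and AO090009000298 (0.414), and with symbols cwh41 (0.632), named after a glucosidase of the ER in budding yeast, and cp1 (0.709). For dppIV they were AO090005000719 (0.290), AO090701000326 (0.344) and AO090012000271 (0.362), and with symbols bna5-1 (0.546), named after the kynureninase gene of budding yeast, and efm7 (0.555), named after a methyltransferase of that yeast.

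The nearest to sxa2 were cog6 (0.178), a subunit gene of a Golgi tethering complex, slx4 (0.188), a subunit gene of a DNA repair nuclease, and AO090102000163 (0.195). In liquid culture cog6 was at 37.5 CPM without DTT and 98.1 CPM with it, on average, and slx4 at 12.1 and 33.9 CPM. For AO090005000719, the gene nearest to dppIV, the means were 138 CPM in the solid controls, 11.4 in solid DTT, 41.0 in the liquid controls and 3.57 in liquid DTT. These levels describe what the choice selected for and were given no test.

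The list of other peptidase genes, matched by symbol, held 6 genes, all tested. Only 714 of 12347 genes in the reference have a symbol, so peptidase genes without one could not enter this list. A further 2, kexA and ampp, were recognised only after the values were seen and are not in its counts and medians. None of the 6 passed in edgeR's test, where 9.30% of all genes did under DTT in solid culture, 20.0% in liquid culture, 3.89% between untreated and 2.95% between treated cultures, and 0% for the difference of effects. Unadjusted, lap1 was under 0.05 in solid and in liquid culture under DTT, kexB likewise, and cps1 between the cultures without and with DTT. Of all 9438 tested genes, 2647 and 3416 were under 0.05 unadjusted in solid and liquid culture, and 1729 and 2216 between the cultures without and with DTT. The median log2 fold change of the 6 under DTT was 0.41 in solid and 0.27 in liquid culture, beside -0.05 and -0.03 over all tested genes. lap1, a leucine aminopeptidase gene, was at 120 ± 28.4 and 37.8 ± 6.98 CPM in solid culture without and with DTT (SD, n = 2 each). Its log2 fold change was -1.66 ± 0.50 in solid (adjusted p = 0.0711 in edgeR's test) and -1.14 ± 0.50 in liquid culture (0.133), and with insert size as a block both passed (0.0175 and 0.0307).

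kexB, the gene of the kexin-type protease that processes proproteins in the Golgi, was at 1.20 ± 0.45 in solid (adjusted p = 0.125 in edgeR's test) and 1.06 ± 0.45 in liquid culture (0.127), with means of 82.4 ± 11.6 and 189 ± 27.7 CPM in solid culture (SD, n = 2 each). dapB, named after a vacuolar dipeptidyl aminopeptidase gene of Aspergillus niger, had log2 fold changes of 0.44 ± 0.54 and -0.92 ± 0.55 in solid and liquid culture. cpdS was at 0.38 ± 0.51 and -0.11 ± 0.52. aspf13 was at 1.95 ± 0.86 and 1.36 ± 0.85, with 175 and 23.9 CPM in the solid DTT libraries. It entered the list by its symbol alone, and whether its product is a peptidase was not checked. The count and the medians of the list include it. cps1, named after a vacuolar carboxypeptidase gene of budding yeast, was at 3.68 ± 1.80 CPM in the solid controls (SD, n = 2) and had 1 and 2 reads in the liquid controls, and it passed between untreated cultures only with the block (adjusted p = 0.0444 in edgeR's test) and not without it (0.0561).

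Of 9 tested genes of oligopeptide uptake and of regulators of carbon, pH, amino acid synthesis and ER stress, 1 passed. It was cpcB in liquid culture, where 20.0% of all tested genes did. Symbols of nitrogen and protease gene regulators were searched for too, but no gene of the list carries one, so such regulators were not examined. cpcB encodes a protein of the RACK1 type that in other Aspergillus species takes part in the control of amino acid synthesis. It fell from 767 ± 216 to 81.1 ± 61.3 CPM (SD, n = 2 each), with a log2 fold change of -3.24 ± 0.75 and an adjusted p of 0.0204 in edgeR's test, a call lost without liquid control replicate 1 or 2 or liquid DTT replicate 2 (adjusted p up to 0.0765). In solid culture it was at -2.15 ± 0.71 (adjusted p = 0.0907, and 0.0465 with the block, in edgeR's test). The oligopeptide transporter genes optD (-1.61 ± 0.92 and -2.24 ± 0.97) and optF (1.16 ± 0.42 and 0.77 ± 0.42) did not pass in solid or liquid culture, nor did optB (1.39 ± 0.87 and 0.69 ± 0.85) or optE (0.60 ± 0.62 and 1.0 ± 0.64). The regulator genes of pH response (pacC, 0.20 ± 0.52 and 0.73 ± 0.52), carbon repression (creB, -0.85 ± 0.47 and -0.16 ± 0.47), amino acid synthesis (cpcA, 0.55 ± 0.58 and 1.12 ± 0.59) and ER stress (hacA, 0.76 ± 0.48 and 0.65 ± 0.48) did not pass either. The medians of the 9 genes under DTT were 0.55 in solid and 0.69 in liquid culture, beside -0.05 and -0.03 over all tested genes.

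**Figure D5:**
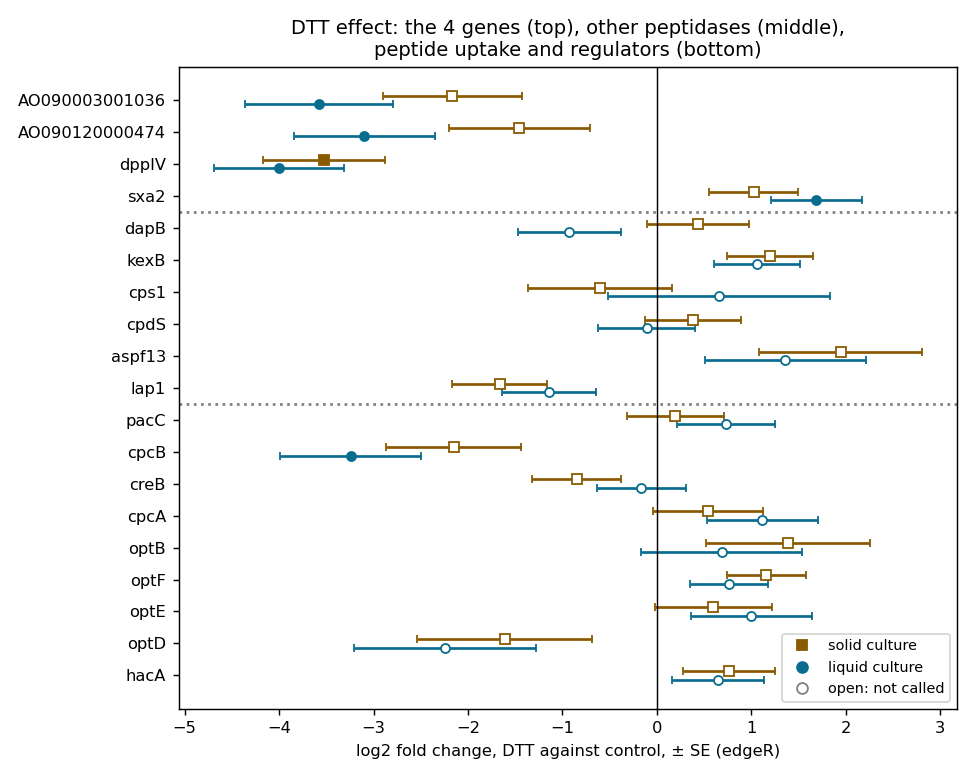
log2 fold changes under DTT, with standard errors from edgeR's fit, of the 4 genes and of the other peptidase, peptide uptake and regulator genes, in solid and liquid culture. dppIV had the lowest value of those plotted in both cultures, and the other peptidase genes listed by symbol lay on both sides of 0 without passing the test.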

How the data were processed

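Per the file headers, the authors deposited a read count for each gene, taken here as raw, and a coverage fraction, the part of the gene that reads covered. No aligner, genome build or rule for reads matching several genes is given in the sources used here. The labels do not say whether strand was kept, so antisense reads may be included. Per the labels, mRNA was captured with oligo-dT beads, random primers made the cDNA and 44 bp were read from both ends. All 11880 locus tags matched RefSeq's table of assembly ASM18445v3, used for names and gene order.

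edgeR 4.0.16 (R 4.3.3) was used for testing: filterByExpr (minimum count 10, 9438 genes kept), TMM factors of 0.73 to 1.25, all 8 libraries in 1 quasi-likelihood fit with 4 residual degrees of freedom, Benjamini-Hochberg adjustment over all tested genes, and calls under 0.05. The SE was obtained from the log2 fold change and the F statistic, and log2 CPM used a prior count of 2. Where a condition was left with 1 library, that library was assumed to vary like the others. Replicate numbers are the insert sizes in the labels, and replicate differences correlated between conditions at 0.24 to 0.51, so the numbers pair the libraries. The block fit had 3 residual degrees of freedom. Both libraries of each condition differed beyond sampling noise, with a chi-square of 166 to 246 per degree of freedom. DESeq2 1.42.0, other scaling, no filter, protein-coding genes only, only the 4 libraries compared and each library left out were the alternatives. The steps were run on simulated counts with known changes in solid DTT only and no effect of insert size. That setting is simpler than these data, so the run does not bear on the calls above.

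The 4 genes and the lists were chosen with earlier results of these data known. Named were the 4 genes, all genes of the peptidase and regulator lists, the 3 genes most like each member plus the nearest 2 with a symbol, 2 neighbours on each side, and bipA. kexA, ampp and the spore genes flbD, brlA, flbB, wetA, fluG and medA were named after their values were seen. Coding lengths, from coverage denominators, were multiples of 3 for 98.9% of genes. Sequences and their similarity to other proteases were not analysed here.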

Additional observations from a re-analysis of the deposited data

How the results depend on the processing

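The number of the 4 genes called under DTT in solid culture, 1, was 2 with DESeq2, 2 with only the 4 libraries compared, and 0 to 2 with each library left out. In liquid culture 4 became 1 to 3 with each library left out. Between untreated cultures 0 became 1 with DESeq2 and 2 with insert size as a block, and under DTT 0 became 1 with either. Of the 6 other peptidases, 0 called in solid culture became 1 with DESeq2, with the block and with only the 4 libraries, and 0 to 1 with each library left out. In liquid culture it became 1 with the block, and between untreated cultures 1 without the filter, with DESeq2 and with the block, and 0 to 1 with each library left out.

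For single genes under DTT, AO090003001036 in solid culture was -2.15 with DESeq2, -2.10 with only the 4 libraries and -2.39 to -1.87 with each library left out. The ranges with each library left out were -4.24 to -3.03 for dppIV in solid culture, and in liquid culture -4.33 to -1.80 for AO090003001036, -3.46 to -2.58 for AO090120000474 and 1.33 to 2.04 for sxa2, which was 1.74 with only the 4 libraries. Between untreated cultures AO090120000474 was -2.39 (adjusted p = 0.0281) with DESeq2 and -2.49 with the block, and dppIV 1.53 with the block. Under DTT dppIV was 2.02 with DESeq2 and 2.05 with the block. The block changed no other call of the 4 genes.

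Directions turned in 7 values, none of them a call. Between untreated cultures AO090003001036 ran from -2.31 to 0.30 (0.30 without liquid control replicate 1), and sxa2 from -0.33 to 0.20 (0.14 without solid control replicate 1, 0.20 without liquid control replicate 2). Between treated cultures AO090003001036 ran from -0.35 to 0.16 (0.16 without solid DTT replicate 1, 0.11 without liquid DTT replicate 2). The differences of effects ran from -0.37 to 2.22 for AO090003001036 (-0.37 without liquid control replicate 1) and from -0.29 to 1.42 for dppIV (-0.29 without solid DTT replicate 2). Of all values of the 4 genes under the alternatives, 242 kept direction and side of the threshold, 9 moved under it, 18 moved over it and 7 turned. The causes of these changes were not tested, except that leaving libraries out leaves fewer samples.

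Over all tested genes, calls under DTT in solid culture numbered 878, 1897 with the block, 1672 with DESeq2, 0 to 144 without 1 solid library and 745 to 1232 without 1 liquid library. In liquid culture they numbered 1885, 2984 with the block, 876 with only the 4 libraries and 609 to 1591 with each library left out. Between untreated cultures they numbered 367, 771 with the block, 890 with DESeq2, 569 without the filter and 57 to 444 with each library left out. Under DTT they numbered 278, 992 with the block, 1142 with DESeq2, 610 without the filter, 95 with only the 4 libraries and 59 to 320 with each library left out. Counts of 4 and 23 reads limit dppIV in liquid DTT, and 10 to 23 reads AO090120000474 under DTT. When likeness was measured by Pearson correlation, 0, 2, 1 and 0 of the 3 nearest genes were shared for AO090003001036, AO090120000474, dppIV and sxa2. Lengths from proteins were not run, nor was the difference of effects with only 4 libraries, which needs all 8.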

Other observations

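Genes next to the 4 members in the order of the reference numbered 16, of which 15 were tested. Of these 15, 2 passed under DTT in solid culture (9.30% of all tested genes did), 1 in liquid culture (20.0%), 1 between untreated cultures (3.89%) and 0 between treated cultures (2.95%). AO090023000603, next to dppIV, fell with it under DTT in solid culture (-3.55 ± 0.86, adjusted p = 0.0383 in edgeR's test) and was at -1.04 ± 0.91 in liquid culture (0.450). AO090023000604, one gene further on, rose in both cultures, by 2.93 ± 0.73 (adjusted p = 0.0405 in edgeR's test) and 3.29 ± 0.74 (0.0186). AO090120000471, next to AO090120000474, was higher in solid than in liquid culture without DTT (4.16 ± 0.91, adjusted p = 0.0418 in edgeR's test), the reverse of its neighbour's sign. No other neighbour passed in these comparisons. Both calls in solid culture under DTT were lost without any 1 of the 4 solid libraries (adjusted p up to 0.215 in edgeR's test). The liquid call of AO090023000604 was lost without liquid control replicate 2 or liquid DTT replicate 1 (up to 0.0714), and that of AO090120000471 without solid control replicate 2 or either liquid control (up to 0.254).

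Of 8 spore and conidiophore genes, 1 passed under DTT in solid culture (9.30% of all tested genes did), 0 in liquid culture (20.0%), 0 between untreated cultures (3.89%) and 1 between treated cultures (2.95%). flbD, a regulator of conidiation, fell under DTT in solid culture (-2.29 ± 0.59, adjusted p = 0.0448 in edgeR's test). brlA, the central regulator of conidiophore development, was higher in solid than in liquid culture under DTT (2.85 ± 0.63, adjusted p = 0.0486 in edgeR's test). The call of flbD was lost without any 1 of the 4 solid libraries (up to 0.230 in edgeR's test), and that of brlA held without 2 of the 8 libraries, the liquid controls. With insert size as a block, flbD and flbB (-1.06) were lower under DTT in solid culture (20.1% of all genes called), and wetA (2.22) and fluG (1.72) were higher and flbB (-0.97) lower in liquid culture (31.6%). Between treated cultures brlA (2.85) was then higher and wetA (-2.01) lower in solid culture (10.5%).

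The coverage of AO090120000474 in replicate 2 of both solid conditions exceeded 44 bases per listed read. In the solid control 757 bases were covered, while 17 single reads of 44 bp span at most 748, and in solid DTT 462 bases were covered, beside at most 440. Such genes made up 1.0% to 1.45% of genes in replicate 1 libraries and 2.83% to 4.49% in replicate 2 libraries. The file headers call the values mapped reads. Whether a pair of reads was listed as 1 is not given in the sources used here.

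A pair of peptidase symbols noticed after the values were seen, kexA and ampp, did not pass under DTT. kexA was at 0.36 in solid and -1.14 in liquid culture on the log2 scale, and ampp at -0.77 and -0.96.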
